A study of Mus musculus with 2 samples.

Results

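The genes described here are 40 genes of fatty acid uptake and oxidation, taken from the 32589 genes of a single-nucleus RNA-seq experiment on mouse hearts. They were chosen by symbol for their known roles, with earlier results of these data known, and all 40 were found in the gene table. They fall into 14 genes of uptake, activation and lipolysis, 20 genes of mitochondrial oxidation and 6 regulators.

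Long-chain fatty acids are the main fuel of the adult heart. Lipoprotein lipase (Lpl), held at the capillary wall by Gpihbp1, frees them from circulating triglyceride, Cd36 and the fatty acid binding proteins carry them across the endothelium and into cardiomyocytes (CMs), and acyl-CoA synthetases trap them there. The carnitine shuttle (Cpt1a, Cpt1b, Slc25a20, Cpt2) then brings them into mitochondria, where acyl-CoA dehydrogenases and the trifunctional protein shorten them step by step, under the control of the nuclear receptors PPARα, PPARδ and PPARγ (Ppara, Ppard, Pparg) and their coactivators.

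Nuclei of each group were made into 1 library, from hearts of male C57BL/6 mice, which were 8 weeks old at the start. PD-1 inhibitor mice received InVivoPlus anti-mouse PD-1 antibody at 5 mg/kg into the peritoneum on days 1 and 14 of a 28-day cycle, and control mice received PBS at those times. How many hearts went into a library is not given in the sources used here. With 1 library a group, no comparison between the groups could be tested: every value below compares 2 libraries and not the conditions, and intervals are exact 95% intervals that cover counting error only.

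The control library kept 9482 nuclei with 12060929 unique molecular identifiers (UMIs, one per captured transcript), and the PD-1 inhibitor library 7619 nuclei with 10254498. The median nucleus held 1013 and 1055 UMIs, and 48 barcodes occurred in both libraries. Nuclei were clustered without the 40 genes, and clusters were named after the cell types they resemble from other marker genes. Endothelial cells (ECs) had 2788 control and 2496 PD-1 inhibitor nuclei, of which 971 and 675 were capillary ECs, which detected 6 of the capillary markers and were led by Aplnr, and 1377 and 1483 were endocardial ECs, which detected 8 endocardial markers. CMs had 1288 and 1094 nuclei, fibroblasts 2468 and 1969, macrophages and related cells (MPs) 1248 and 880, mural cells 588 and 414, and mesothelial cells 473 and 458. Of the MPs, 150 and 81 nuclei formed a cluster led by Cd209a, Klri1 and Flt3, with the dendritic cell gene Clec9a also among its leading genes. Adipocytes, which detected 11 of their 12 markers and had Ucp1 and Adrb3 among their leading genes, had 153 control nuclei and 16 PD-1 inhibitor nuclei. CM nuclei formed a cluster with a low share of cytoplasmic transcripts (756 and 541 nuclei, 0.659% and 1.02% mitochondrial UMIs), a cluster rich in them (490 and 508 nuclei, 11.0% and 9.91%) and a small atrial cluster.

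PPARs bind DNA as partners of retinoid X receptors at repeats of the sequence AGGTCA. The 250 bases before annotated RefSeq starts of these genes were searched for it on both strands. RefSeq promoters on GRCm38.p6 were at hand for 32 of the 40 genes, and 7 of these held the motif, namely Acadm, Acadvl, Cd36, Cpt1a, Echs1, Pparg and Ucp3. Some genes have several promoter entries, and counted by entry the motif was in 8 of 40 (20%), against 14.0% of all 32851 entries. A match of 6 letters is a description of the sequence and not a binding site. The promoters shown are those of Cd36 (fatty acid translocase, chr5:17835897-17836146, minus strand), Acadm (medium-chain acyl-CoA dehydrogenase, chr3:153944644-153944893, minus strand), Pdk4 (the kinase that switches pyruvate dehydrogenase off, chr6:5496279-5496528, minus strand) and Ppara (chr15:85735526-85735775, plus strand), because the levels below turn on these genes. They run 5′ to 3′ on the strand of the gene, and capitals mark the motif or its reverse complement:
Cd36: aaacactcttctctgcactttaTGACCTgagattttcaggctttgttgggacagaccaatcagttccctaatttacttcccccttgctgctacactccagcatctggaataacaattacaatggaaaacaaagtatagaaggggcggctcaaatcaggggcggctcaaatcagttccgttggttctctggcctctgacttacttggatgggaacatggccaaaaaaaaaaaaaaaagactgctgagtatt
Acadm: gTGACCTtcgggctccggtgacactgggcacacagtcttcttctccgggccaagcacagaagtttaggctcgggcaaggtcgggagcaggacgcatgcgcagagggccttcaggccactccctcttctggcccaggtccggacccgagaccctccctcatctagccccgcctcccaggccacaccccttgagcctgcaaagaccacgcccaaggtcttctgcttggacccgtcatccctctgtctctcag
Pdk4: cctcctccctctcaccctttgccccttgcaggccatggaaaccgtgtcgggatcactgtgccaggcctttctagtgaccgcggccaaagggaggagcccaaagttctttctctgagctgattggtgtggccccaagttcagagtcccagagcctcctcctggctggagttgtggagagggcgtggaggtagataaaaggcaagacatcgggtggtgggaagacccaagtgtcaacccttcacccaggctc
Ppara: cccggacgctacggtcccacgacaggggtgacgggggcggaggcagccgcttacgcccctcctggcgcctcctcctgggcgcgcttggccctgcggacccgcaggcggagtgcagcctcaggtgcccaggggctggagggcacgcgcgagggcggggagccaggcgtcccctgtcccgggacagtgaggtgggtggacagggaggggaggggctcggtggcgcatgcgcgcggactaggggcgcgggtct
The match begins at position -228 of the Cd36 promoter and -249 of the Acadm promoter, counted from the start site, and none of these letters occur in the windows of Pdk4 and Ppara.

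Levels are given as UMIs of a gene per 1000000 UMIs of all genes (CPM), for the pooled nuclei of each cell type. With both libraries added together and 14 cell types and EC subtypes compared, 20 of the 40 genes had their highest level in adipocytes, 11 in CMs, 2 in capillary ECs and 1 in endocardial ECs. When adipocytes were left out, CMs were the highest type for 24 genes, among them 17 of the 20 oxidation genes, and capillary ECs for 6, namely Cd36, Fabp4, Gpihbp1, Angptl4, Lipe and Pparg. Taken library by library, 33 genes had the same highest type in both, and 5 did not, namely Fabp4, Acsl3, Acads, Hadha and Etfa. Most adipocyte UMIs come from the control library, so the summed adipocyte levels mainly describe it. Every comparison in these sentences is of one gene across types, since levels of different genes depend on their length.

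Capillary ECs carried the genes of uptake at the vessel wall. Cd36 stood at 3623 CPM in capillary ECs, against 1597 in adipocytes as the second type and 85.3 in valve-like ECs as the lowest. Gpihbp1, the anchor of Lpl, stood at 688 CPM in capillary ECs and 353 in lymphatic ECs. Both genes were thus highest in the capillary bed. Fabp4, which chaperones fatty acids in endothelium and fat, was highest in adipocytes in the control library (4507 CPM, against 3371 in capillary ECs) and in capillary ECs in the PD-1 inhibitor library (5492 CPM, against 4103 in adipocytes). Pparg, the receptor that drives lipid uptake and fat cell identity, was highest in adipocytes (2785 CPM) and next in capillary ECs (341 CPM). Fabp5, a binding protein of endothelium and skin, differed from its relatives in that endocardial ECs held its highest level (546 CPM), with valve-like ECs next at 209.

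CMs held the highest level of Fabp3, the heart-type binding protein, at 2698 CPM, while the second type stood at 398. Lpl was spread over more types, with 3758 CPM in adipocytes and 3328 in CMs. CMs were also highest for Acadl (716 CPM), Acadvl (421), Hadha (513), Hadhb (711), Hadh (194), Echs1 (161), Acaa2 (441), Etfa (746) and Etfdh (344), and for Ppargc1a, the PGC-1α coactivator of mitochondrial genes (1015). These enzymes are dehydrogenases, the trifunctional protein and other β-oxidation steps, and electron transfer proteins. The CM levels pool the clusters rich and low in cytoplasmic RNA. In both libraries each of these enzyme genes was higher in the rich cluster, for Acadl by log2 ratios of 2.19 and 2.52. Ppargc1a was lower there, at -3.27 and -2.91. The ranks thus hold for this mix of CM clusters, and ranks of the low cluster alone are not given here. Hadha and Etfa were each highest in CMs in one library and in adipocytes in the other. Cpt2, Slc25a20, Eci1, Eci2 and Acadm were highest in adipocytes in both libraries, and for Acadm the summed levels were 665 CPM there and 571 in CMs. For Eci1 the summed levels were nearly equal, at 233.7 CPM in adipocytes and 233.3 in CMs. PD-1 inhibitor adipocytes had only 18 UMIs of Cpt2, 13 of Slc25a20, 18 of Eci1 and 9 of Eci2, so these ranks are uncertain there. Acads was highest in adipocytes in the control library (78.0 CPM, against 50.4 in CMs) and in CMs in the PD-1 inhibitor library (78.6 CPM), where adipocytes had only 3 UMIs of it.

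Adipocytes held by far the highest levels of the lipolytic and fat cell genes. Acsl1, the main acyl-CoA synthetase of fat and heart, stood at 3392 CPM there and at 348 in CMs. Pdk4 had 2019 CPM in adipocytes and 136 in CMs, and Ppara had 1441 and 269. Hormone-sensitive lipase (Lipe) had 1573 CPM in adipocytes and 144 in capillary ECs, and Angptl4, a secreted inhibitor of Lpl, had 622 and 12.8. Slc27a1, a fatty acid transport protein, had 932 CPM in adipocytes and 386 in CMs, Pnpla2, the first triglyceride lipase, had 402, Ucp3 had 260, Ppargc1b had 785 and Srebf1, a regulator of lipid synthesis, had 525.

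The remaining genes peaked elsewhere. Acsl4, a synthetase that prefers arachidonic acid, was highest in mesothelial cells (191 CPM), Ppard in mural cells (119), Slc27a3 in valve-like ECs (53.0) and Cpt1a in the glial nuclei (139), which numbered only 32 and 10. Acsl3 was low throughout, with 69.9 CPM in adipocytes and 59.9 in MPs. Cpt1b, the muscle form of the shuttle's first step, and Etfb, the β subunit of electron transfer flavoprotein, had 0 UMIs in every type of both libraries. Each is overlapped on its own strand by another gene entry, Cpt1b over 100% of its span and Etfb over 99.7%, and how reads matching both entries were counted is not given in the sources used here, so these zeros cannot be read as absence of expression.

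**Figure D1:**
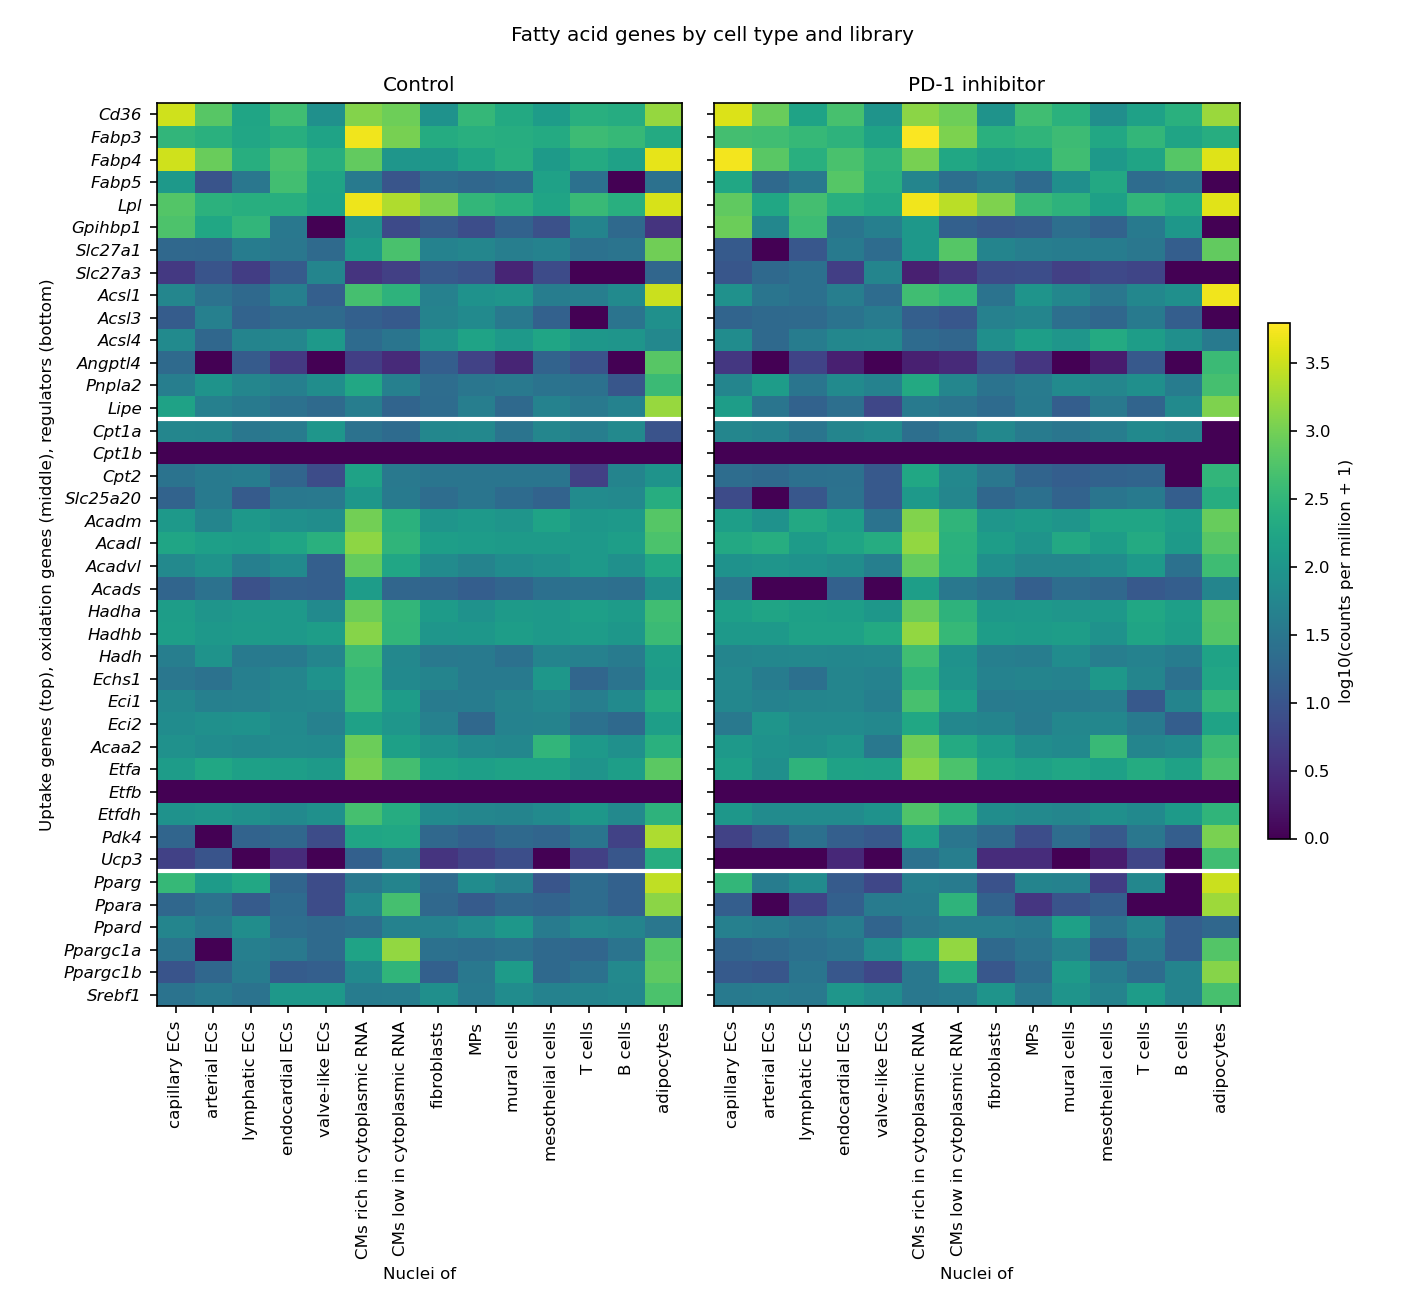
Level of each of the 40 genes, as log10(CPM + 1) in color, by cell type (columns) in the control library (left) and the PD-1 inhibitor library (right), with uptake genes on top, oxidation genes in the middle and regulators at the bottom. Cd36 and Gpihbp1 are brightest in capillary ECs, the oxidation genes in CMs rich in cytoplasmic RNA and in adipocytes, and the rows of Cpt1b and Etfb stay at 0.

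The difference between capillary and endocardial ECs was measured inside each library, where both come from the same tissue. Among control nuclei the capillary over endocardial log2 ratio was 4.08 (3.67 to 4.55) for Gpihbp1, and among PD-1 inhibitor nuclei it was 4.89 (4.49 to 5.35). For Cd36 it was 2.98 (2.86 to 3.10) and 3.01 (2.89 to 3.12), and for Fabp4 2.73 (2.62 to 2.85) and 3.42 (3.32 to 3.53). Uptake genes of the capillary wall therefore differed in level between these EC subtypes in the same direction in both libraries. Lpl was less unequal, at 1.36 (1.16 to 1.55) and 1.57 (1.38 to 1.76), and Fabp5 had the opposite sign, at -1.96 (-2.28 to -1.67) and -1.80 (-2.10 to -1.53). Oxidation genes had ratios nearer 0. In the control library 12 had 100 UMIs or more over both subtypes, with a median of 0.15 and a range of -0.70 to 0.60, and the interval lay above 0 for Cpt1a, Acadm and Etfdh and below 0 for Echs1. In the PD-1 inhibitor library 13 had a median of 0.06 and a range of -1.01 to 0.61, with the interval above 0 for Etfdh and below 0 for Hadhb and Eci2. Among oxidation genes with that many UMIs, only Etfdh had an interval on the same side of 0 in both libraries. Etfdh, which passes electrons on to the respiratory chain, had 0.47 (0.02 to 0.92) and 0.61 (0.14 to 1.05). Slc25a20, with fewer UMIs, had ratios of -1.03 (-2.04 to -0.19) and -1.89 (-3.98 to -0.59).

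Free RNA reaches nuclei of every type in such libraries, so shares of nuclei with a UMI were set beside T cells, a type not known for these genes. After each nucleus was thinned to 500 UMIs, Cd36 was present in 70.5% of control and 74.2% of PD-1 inhibitor capillary ECs, and in 5.46% and 5.26% of T cells. Before thinning, the capillary shares were 82.2% and 85.6% at a median depth of 818 UMIs in both libraries, and the T cell shares 13.9% and 11.1% at medians of 857.5 and 885.5. Fabp4 was present in 68.7% and 80.9% of thinned capillary ECs and in 6.72% and 7.37% of thinned T cells. Both genes were thus well above the background in capillary ECs. Fabp3 was not: it was present in 13.3% and 20.1% of thinned capillary ECs and in 8.40% and 13.2% of thinned T cells. Its count per UMI of myoglobin (Mb), a CM transcript, lay between 0.446 and 0.929 in every type other than glial cells, with 0.652 and 0.683 in CMs and 0.639 and 0.651 in capillary ECs. Lpl did not keep such a ratio in 2 types, with 2.81 and 2.65 per Mb UMI in fibroblasts and 15.03 and 16.9 in adipocytes against 0.862 and 0.789 in CMs. Other types lay nearer the CM ratio, with 1.26 and 1.07 in capillary ECs and 0.570 and 0.556 in endocardial ECs. Lymphatic ECs had 0.795 and 0.819, and T cells 0.538 and 0.653. The part of CM RNA in the Lpl of these types was not tested.

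**Figure D2:**
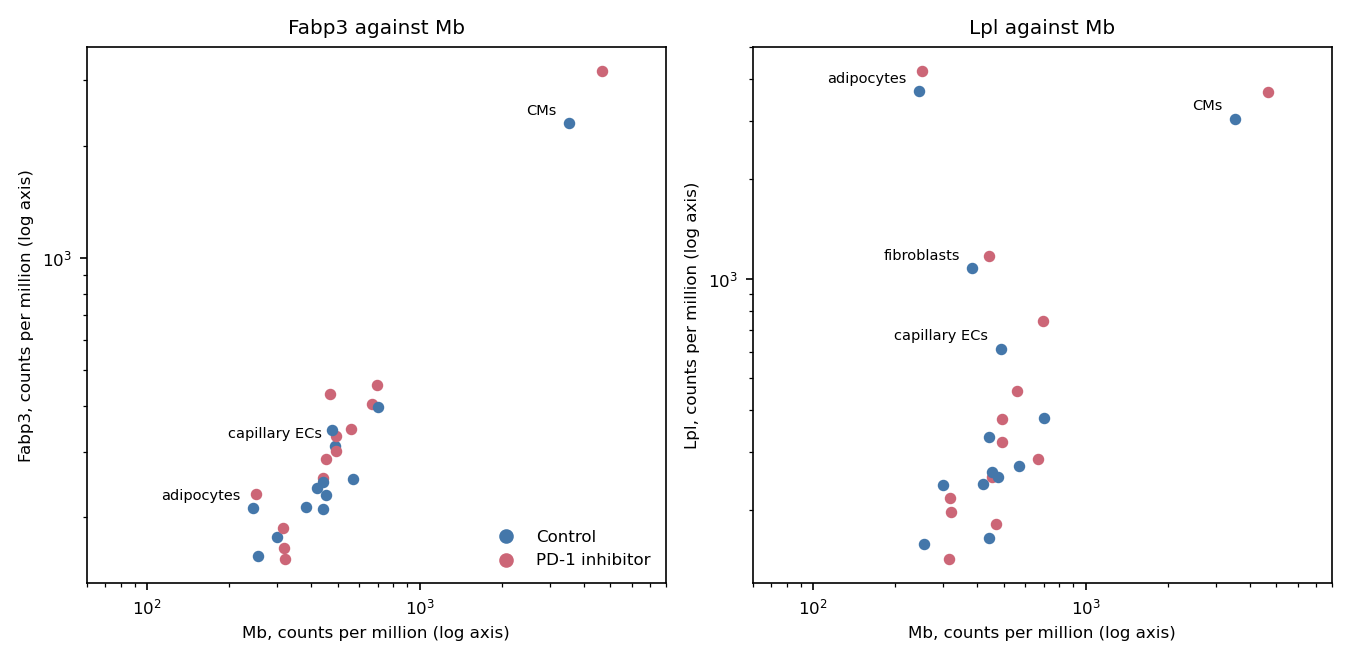
CPM of Fabp3 (left) and Lpl (right) against CPM of the CM transcript Mb, both axes logarithmic, with 1 point for each cell type other than glial cells in the control (blue) and PD-1 inhibitor (red) libraries. Fabp3 follows Mb from the lowest type to CMs, while adipocytes and fibroblasts lie above the other types for Lpl, at 15.03 and 2.81 Lpl UMIs per Mb UMI in the control library.

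To compare the groups, the ratio of PD-1 inhibitor over control CPM was taken for every gene whose UMIs came to 100 or more over the pair of libraries, and a gene was called past the fold at 1.5-fold or more, which is 0.585 on the log2 scale. In capillary ECs, 18 of the 40 genes had enough UMIs. Of these, 4 were higher in the PD-1 inhibitor library by that fold (22.2%), all of them uptake genes, against 6.15% of the 3835 genes with enough UMIs. None of the 18 was lower past the fold, against 5.32% of the 3835. The 9 uptake genes had a median log2 ratio of 0.54, with 8 above 0, and the 8 oxidation genes a median of 0.24, with 7 above 0, while the median of all 3835 was -0.04.

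The 4 genes were Fabp4, Fabp5, Gpihbp1 and Acsl1. Fabp4 had 3104 UMIs (3371 CPM) in the control and 3497 (5492 CPM) in the PD-1 inhibitor library (log2 ratio 0.70, 0.63 to 0.77). Gpihbp1 had 512 UMIs (556 CPM) and 560 (880 CPM), giving 0.66 on the log2 scale (0.49 to 0.84), and its share of thinned nuclei was 22.0% and 31.9%. Fabp5 had 105 UMIs (114 CPM) and 115 (181 CPM), giving 0.66 on the log2 scale (0.27 to 1.06). For these 3 binding and anchoring proteins the interval lay well above 0. Acsl1 had only 51 UMIs (55.4 CPM) and 53 (83.2 CPM), and its log2 ratio of 0.59 (0.01 to 1.17) barely cleared 0.

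Other uptake genes were higher by less. Cd36 had 3092 UMIs (3358 CPM) and 2550 (4005 CPM), giving 0.25 on the log2 scale (0.18 to 0.33). Lpl had 566 UMIs (615 CPM) and 473 (743 CPM), giving 0.27 on the log2 scale (0.09 to 0.45). The CM transcripts in capillary ECs were higher as well, with log2 ratios of 0.52 for Mb and 0.49 for Tnnt2, beside 0.54 (0.30 to 0.78) for Fabp3 from 287 and 289 UMIs, and their part in the uptake values was not tested. Lipe had 141 and 83 UMIs, giving -0.23 (-0.64 to 0.17), the only uptake gene of the 9 below 0.

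Gene length moved with the ratios in this comparison. The genes were put in 5 equal classes by span. Those of the shortest class, up to 15.3 kb, had a median log2 ratio of 0.27 in capillary ECs, and the longer classes had, in order, 0.10, -0.09, -0.10 and -0.26. Fabp4, Fabp5 and Gpihbp1 belong to the shortest class. When each gene was set against the median of its own length class, 1 gene of the 18 was still past the fold, the uptake median was 0.36 and 8 of 9 uptake genes lay above their class median. The share of all genes past the fold after this step is not given here, so no excess of members is read from that count. The gene past the fold was Acsl1, whose class had a median of -0.10. Cd36, a long gene in the same class, stood 0.36 above it.

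Capillary genes under the 100 UMI minimum varied in direction. Echs1, the short-chain enoyl-CoA hydratase, had 29 UMIs and 37, with 0.88 (0.14 to 1.64), while Angptl4, Pdk4 and Eci2 had ratios below 0. Angptl4 had 18 UMIs and 2, giving -2.36 on the log2 scale (-5.79 to -0.58), and Pdk4 had 15 and 3, with -1.61 (-4.22 to 0.03). Eci2, an enoyl-CoA isomerase, had 63 and 21, with -1.03 (-1.84 to -0.32). Adipocyte markers summed to 61.9 CPM in control and 12.6 CPM in PD-1 inhibitor capillary ECs, with 4 and 9 of the 12 markers at 0, and their part in these values was not tested. Pparg had 322 UMIs (350 CPM) and 209 (328 CPM), giving -0.09 on the log2 scale (-0.35 to 0.16), so no difference was detectable in capillary ECs at this depth. Over all ECs, 31 of the 40 genes had enough UMIs, with 1 higher (background 4.44%) and 1 lower (3.33%). Pparg was the lower gene, with 411 UMIs (139 CPM) and 248 (86.3 CPM) and a log2 ratio of -0.69 (-0.92 to -0.46), which was -0.28 with equal proportions of the EC clusters in each library.

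**Figure D3:**
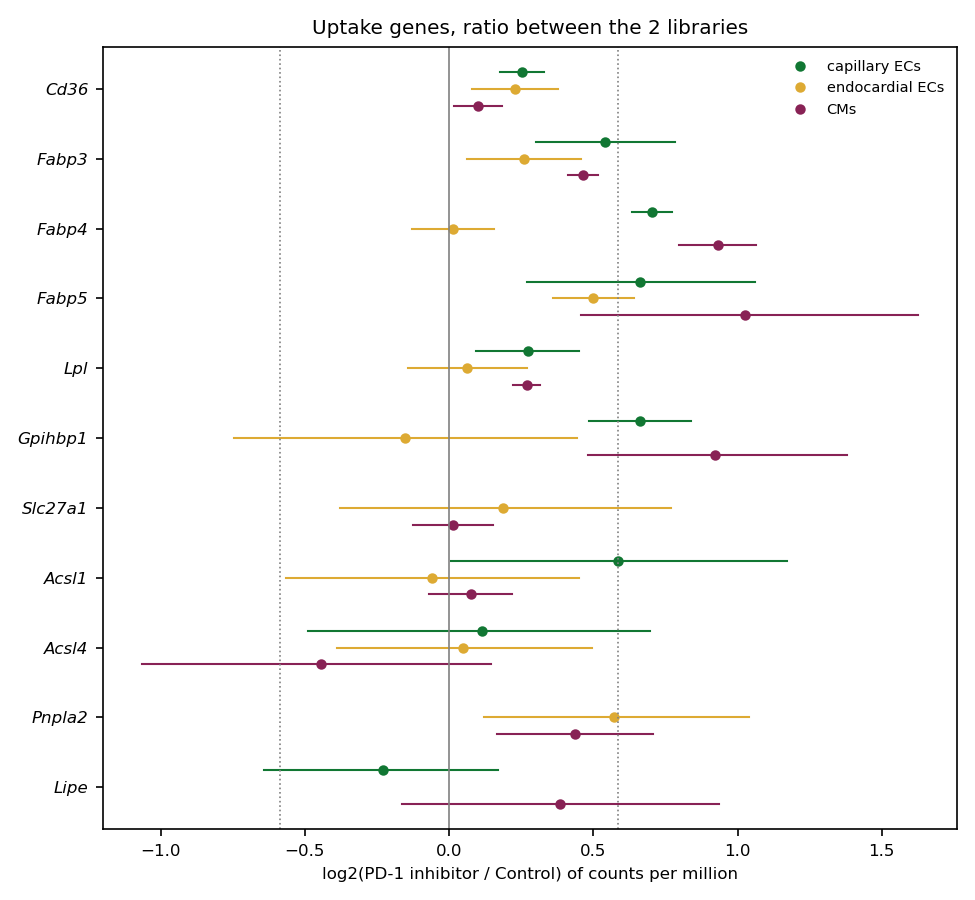
Log2 ratio of PD-1 inhibitor over control CPM for uptake genes with at least 100 UMIs, in capillary ECs (green), endocardial ECs (yellow) and CMs (purple), with lines for 95% counting intervals and dotted lines at 1.5-fold. In capillary ECs, Fabp4, Fabp5, Gpihbp1 and Acsl1 lie past the right dotted line, while Fabp4 lies at 0.01 in endocardial ECs.

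Endocardial ECs differed in which genes were higher. Of 26 genes with enough UMIs, 3 were higher past the fold (11.5%), against 4.67% of 6762 genes, and none was lower, against 2.84%. Acadm had 118 UMIs (78.5 CPM) in the control and 232 (133 CPM) in the PD-1 inhibitor library (log2 ratio 0.76, 0.44 to 1.10). Hadh, the short-chain hydroxyacyl-CoA dehydrogenase, had 53 UMIs (35.3 CPM) and 98 (56.4 CPM), giving 0.67 on the log2 scale (0.18 to 1.19). Ppard, the PPAR found in most tissues, had 34 UMIs (22.6 CPM) and 69 (39.7 CPM), with 0.80 (0.20 to 1.45). The 13 oxidation genes had a median of 0.23, with 11 above 0, and the 10 uptake genes a median of 0.12, while all genes had -0.01. Fabp5, the endocardial member of its family, had 672 UMIs (447 CPM) and 1099 (632 CPM), giving 0.50 on the log2 scale (0.36 to 0.64). Fabp4 and Lpl were level here, at 0.01 (-0.13 to 0.15) and 0.06 (-0.14 to 0.27), and Gpihbp1, with 49 and 51 UMIs, had -0.15 (-0.75 to 0.44). Whether the ratios of Fabp4 and Gpihbp1 differ between the EC subtypes was not tested across hearts. Lymphatic ECs had enough UMIs for 4 genes, of which Fabp3 (46 and 72 UMIs, 0.97, from 0.42 to 1.54) and Lpl (62 and 95 UMIs, 0.94, from 0.46 to 1.43) were higher, beside a background of 8.14%, and none was lower (9.25%). The summed CPM of 6 transcripts abundant in CM cytoplasm was 1316 and 2213 there, and its part was not tested.

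In CMs, 35 of the 40 genes had enough UMIs. The PD-1 inhibitor library was higher past the fold for 5 (14.3%), against 6.03% of 6837 genes, and lower for 3 (8.57%), against 6.67%. The 18 oxidation genes had a median log2 ratio of 0.44, with 17 above 0, and the 11 uptake genes a median of 0.38, with 10 above 0, while the 6 regulators had a median of -0.21, with none above 0. For all 6837 genes the median was -0.02, with 3257 above 0. Gene length moved with the ratios here too, with class medians, from the shortest to the longest genes, of 0.28, 0.08, -0.00, -0.12 and -0.29. Against their own length classes, the oxidation genes had a median of 0.41, with 17 of 18 above their class. The regulators are mostly long genes, the median of their classes was -0.21, and 2 of the 6 lay above their class.

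Along the oxidation pathway, the carnitine shuttle came first. Cpt2, its inner membrane enzyme, had 171 UMIs (70.1 CPM) in the control and 227 (112 CPM) in the PD-1 inhibitor library (log2 ratio 0.67, 0.38 to 0.97). Slc25a20, the carnitine carrier of the inner membrane, had 133 and 163 UMIs, with 0.55 (0.22 to 0.90). Among the dehydrogenases, short-chain Acads had 123 UMIs (50.4 CPM) and 160 (78.6 CPM), with 0.64 (0.29 to 0.99). With equal proportions of the CM clusters these were 0.45 for Cpt2 and 0.35 for Acads. Cpt1a, the other measured shuttle gene, had 55 and 62 UMIs, with 0.43 (-0.11 to 0.99), and the short-chain enzymes Hadh and Echs1 had 0.46 (0.27 to 0.66) and 0.30 (0.09 to 0.52). The ratios of shuttle and short-chain genes thus covered both sides of the oxidation median. Medium-chain Acadm had 1172 UMIs (480 CPM) and 1382 (679 CPM), with 0.50 (0.39 to 0.61). Long-chain Acadl had 1572 (644 CPM) and 1630 (801 CPM), with 0.31 (0.21 to 0.41). Very-long-chain Acadvl had 895 (367 CPM) and 989 (486 CPM), with 0.41 (0.27 to 0.54). The subunits of the trifunctional protein were not equal. Hadhb had 1494 UMIs (612 CPM) and 1689 (830 CPM), with 0.44 (0.34 to 0.54), while Hadha had 1221 (501 CPM) and 1074 (528 CPM), with 0.08 (-0.04 to 0.20). Ucp3, a mitochondrial carrier induced by fatty acids, had 69 UMIs in each library and 0.26 (-0.24 to 0.76).

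The one oxidation gene below 0 was Pdk4, which diverts the heart from glucose to fat and is a PPARα target. It had 438 UMIs (180 CPM) in the control and 170 (83.6 CPM) in the PD-1 inhibitor library (log2 ratio -1.10, -1.37 to -0.84). Its share of CM nuclei was 21.0% (18.8 to 23.3) and 10.1% (8.42 to 12.1), by exact Clopper-Pearson intervals.

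Among uptake genes in CMs, the higher ones were Fabp4, Fabp5 and Gpihbp1, which are endothelial genes. Fabp4 had 745 UMIs (305 CPM) and 1185 (582 CPM), with a log2 ratio of 0.93 (0.80 to 1.07). Fabp5 had 41 and 70 UMIs, with 1.03 (0.46 to 1.63), and Gpihbp1 had 70 and 111, with 0.92 (0.48 to 1.38). The 12 EC markers together had 662 and 881 CPM in CMs, a log2 ratio of 0.41, and their part in these 3 values was not tested. Fabp3, the binding protein of CMs themselves, had 5612 UMIs (2301 CPM) and 6458 (3174 CPM), with 0.46 (0.41 to 0.52). Lpl had 7426 UMIs (3044 CPM) and 7465 (3669 CPM), with 0.27 (0.22 to 0.32). The membrane carriers and the synthetase were close to level: Cd36 had 2494 and 2228 UMIs, with 0.10 (0.02 to 0.18), Slc27a1 had 938 and 790, with 0.01 (-0.12 to 0.15), and Acsl1 had 829 and 728, with 0.07 (-0.07 to 0.22).

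The mix of CM clusters bears on these values. The cluster rich in cytoplasmic RNA held 490 of 1288 control CMs and 508 of 1094 PD-1 inhibitor CMs. Inside each library, 16 oxidation genes had enough UMIs, and nearly all were higher in the rich than in the low cluster. Their median log2 ratio was 1.98 in the control (15 of 16 above 0) and 1.77 in the PD-1 inhibitor library (16 of 16). The exception was Pdk4 in the control, at -0.11 (-0.43 to 0.20). All genes had medians of -0.47 and -0.30. Ppara, Ppargc1a and Ppargc1b were lower in the rich cluster, by log2 ratios of -3.02, -3.27 and -2.25 in the control. With equal proportions of the CM clusters in each library, the oxidation median was 0.26 and 2 genes were higher past the fold. The share of all genes past the fold with equal proportions is not given here, so no excess is read from that count.

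Within the rich cluster, none of 25 genes was past the fold in either direction, against a background of 3.13% higher and 3.85% lower. The 16 oxidation genes had a median of 0.14, or 0.10 against their own length classes, with 12 above their class. Within the low cluster, 29 genes had enough UMIs and the 16 oxidation genes had a median of 0.22, with 12 above 0. Against their own length classes their median was 0.18, with 10 of 16 above their class. There, 3 genes were higher (background 5.39%), namely Fabp4 (161 and 201 UMIs, 0.88, from 0.57 to 1.19), Cpt2 (55 and 65 UMIs, 0.80, from 0.26 to 1.34) and Slc25a20 (57 and 60 UMIs, 0.63, from 0.09 to 1.18). Another 3 were lower (background 5.24%), namely Pdk4, Ppara and Eci2, of which Eci2 had 159 and 63 UMIs and -0.77 (-1.22 to -0.35). Acadl and Hadha lay slightly below 0 in this cluster, at -0.22 (-0.43 to -0.01) and -0.20 (-0.40 to 0.00).

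Pdk4 stood apart between the clusters. In the low cluster it had 297 UMIs (181 CPM) in the control and 33 (29.7 CPM) in the PD-1 inhibitor library (log2 ratio -2.59, -3.18 to -2.09). In the rich cluster it had 124 UMIs (168 CPM) and 126 (150 CPM), with -0.16 (-0.53 to 0.21). Both control clusters thus had a similar level, and the PD-1 inhibitor value was low in one of them. The share of low-cluster nuclei with a Pdk4 UMI was 22.6% (19.7 to 25.8) and 3.88% (2.42 to 5.87), and 6.88% and 0.739% after thinning. T cells had 1.68% (0.46 to 4.25) and 2.11% (0.577 to 5.30) without thinning, so the PD-1 inhibitor share in the low cluster was within the background. Adipocyte markers had 32.3 and 17.1 CPM in this cluster. The difference in ratio between the clusters was not tested across hearts.

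**Figure D4:**
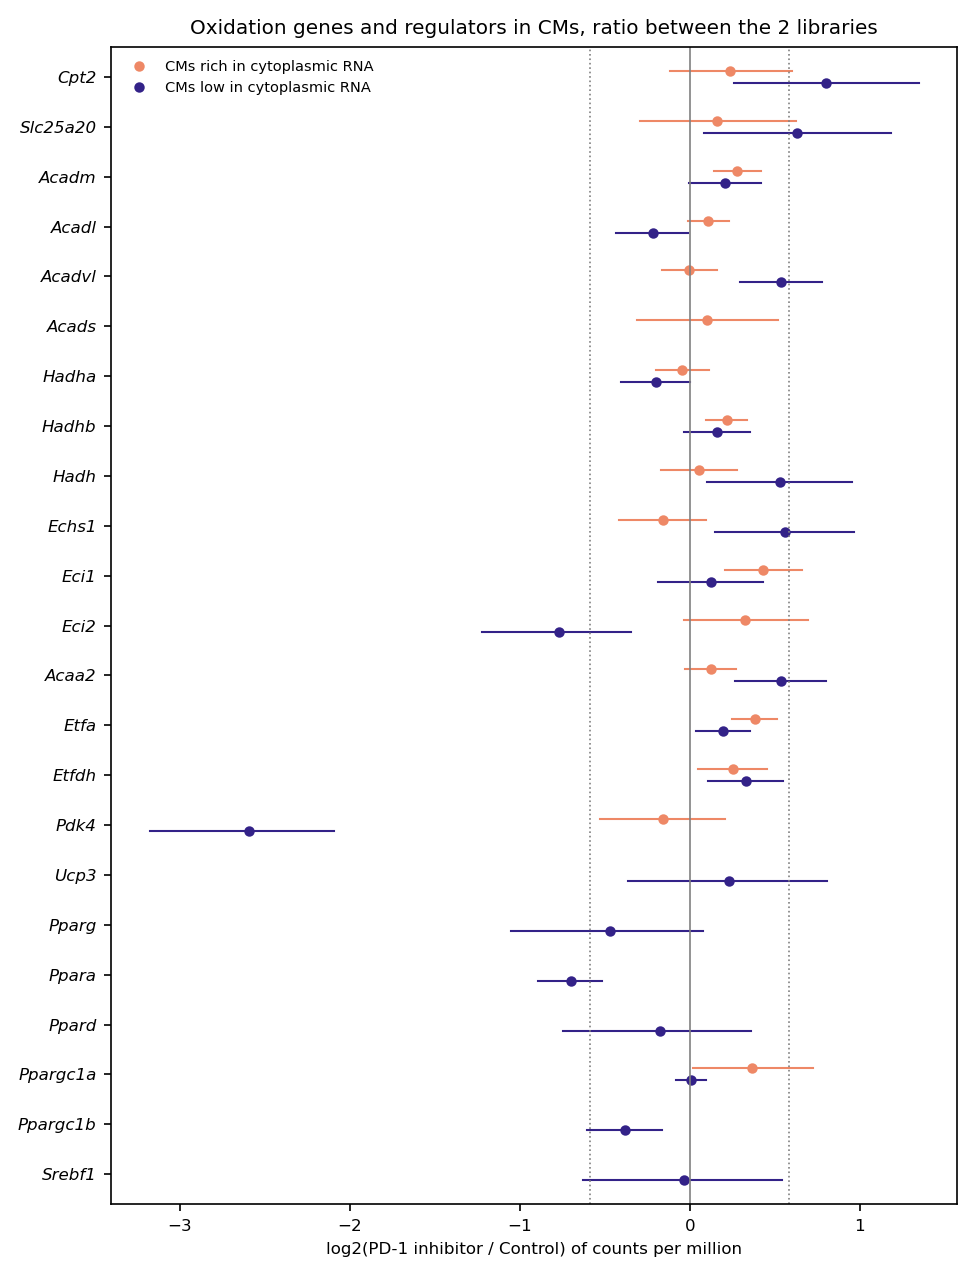
Log2 ratio of PD-1 inhibitor over control CPM for oxidation genes and regulators with at least 100 UMIs, in CMs rich in cytoplasmic RNA (orange) and CMs low in it (blue), with 95% counting intervals and dotted lines at 1.5-fold. Pdk4 lies at -2.59 in the low cluster and at -0.16 in the rich one, and Ppara at -0.70 in the low cluster.

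All 6 regulators had a CM log2 ratio below 0, as long genes did as a class, and 2 were past the fold. Ppara, the chief PPAR of oxidation in heart muscle, had 840 UMIs (344 CPM) in the control and 365 (179 CPM) in the PD-1 inhibitor library, with -0.94 (-1.12 to -0.76), which was -0.82 against genes of its own length class. In the low cluster it had 784 UMIs (478 CPM) and 327 (294 CPM), with -0.70 (-0.89 to -0.51), and in the rich one 43 and 32, with -0.60 (-1.32 to 0.08). Ppara was thus lower in both clusters, although the rich cluster's interval reached 0. Ppargc1b, the PGC-1β coactivator, had 557 UMIs (228 CPM) and 294 (144 CPM), with -0.66 (-0.87 to -0.45), which was -0.37 against genes of its own length class and -0.44 with equal proportions of the CM clusters. Ppargc1a had 2655 UMIs (1088 CPM) and 1885 (926 CPM), with -0.23 (-0.32 to -0.15) in all CMs but 0.01 (-0.08 to 0.10) in the low cluster. In the rich cluster it had 116 and 170 UMIs, with 0.37, so neither of these clusters had the negative ratio of all CMs. Pparg had 110 and 80 UMIs, with -0.20 (-0.63 to 0.23), Ppard had 97 and 74, with -0.13 (-0.59 to 0.32), and Srebf1 had 94 and 71, with -0.14 (-0.61 to 0.32). No difference was detectable for these 3 at this depth.

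The wider pathway was read from further genes grouped in the same way, 19 of uptake, 25 of oxidation, 16 of lipid storage and 18 regulators. In CMs with at least 200 UMIs, Hsd17b10 and Decr1, accessory enzymes of β-oxidation, had log2 ratios of 0.61 (0.28 to 0.95) and 0.60 (0.37 to 0.83), and Plin5, a lipid droplet coat protein of oxidative tissue, had 0.66 (0.33 to 0.99). Esrrg, an orphan receptor that works with PGC-1α, had 1549 UMIs (635 CPM) and 790 (388 CPM), with -0.71 (-0.84 to -0.59), and -0.46 (-0.59 to -0.33) in the low cluster. Beside the CM background of 6.03% higher and 6.67% lower, 2 of 19 wider oxidation genes were higher past the fold and 0 lower, and 0 of 13 wider regulators were higher and 1 lower, a share near that background. The 13 storage genes had a median of -0.03, with 2 higher, Plin5 and Abhd5, a coactivator of Pnpla2 (0.62, 0.19 to 1.07), and 1 lower. The lower gene was Scd1, a fatty acid desaturase, with 90 and 10 UMIs and -2.85 (-4.02 to -1.96). Scd1 was also lower past the fold in adipocytes, all ECs, fibroblasts and mesothelial cells. Adipocyte markers had a summed log2 ratio of -0.45 in CMs, and their part in the Scd1 value was not tested. In capillary ECs, none of the wider genes with enough UMIs (2 of uptake, 4 of oxidation, 2 of storage and 7 regulators) was past the fold, beside a background of 6.15% higher and 5.32% lower.

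**Figure D5:**
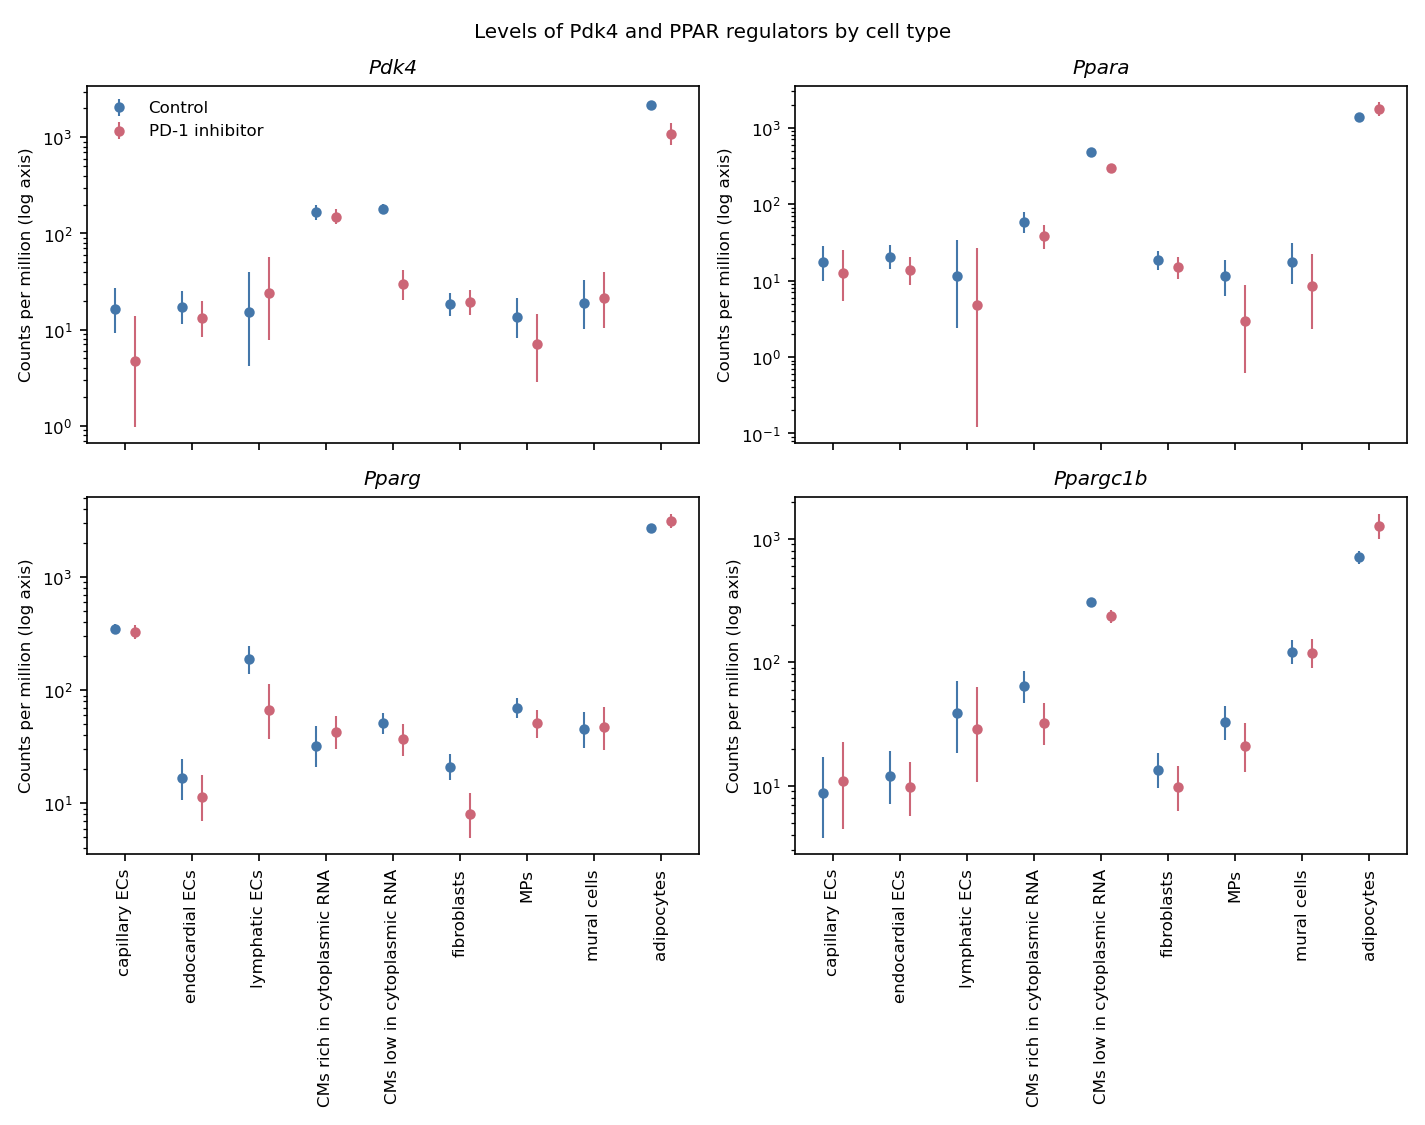
CPM of Pdk4, Ppara, Pparg and Ppargc1b on logarithmic axes in 9 cell types of the control (blue) and PD-1 inhibitor (red) libraries, with 95% Poisson intervals. Adipocytes are highest in each panel, and Pdk4 in CMs low in cytoplasmic RNA stands at 181 CPM in the control and 29.7 CPM in the PD-1 inhibitor library.

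Summed over all nuclei of a library, 38 of the 40 genes had enough UMIs, with 1 higher (background 3.77%) and 6 lower (background 3.61%). In such a sum, fewer nuclei of a type and less RNA per nucleus cannot be told apart. The higher gene was Fabp5, with 1095 UMIs (90.8 CPM) and 1693 (165 CPM) and a log2 ratio of 0.86 (0.75 to 0.97). The lower genes were Angptl4 (-2.39), Pdk4 (-1.74), Pparg (-1.24), Ppara (-1.18), Lipe (-1.17) and Ppargc1b (-0.72). Adipocytes, at 153 and 16 nuclei, supplied 71.5% of the control UMIs of Angptl4, 57.3% of those of Lipe and of Pparg, 56.7% of those of Pdk4 and 33.4% of those of Ppara. Without adipocytes, the log2 ratios were -1.39 for Angptl4, -0.85 for Pdk4, -0.91 for Ppara, -0.53 for Pparg, -0.55 for Ppargc1b and -0.24 for Lipe, and the genes past the fold were 1 higher (background 3.42%) and 3 lower (3.16%). Acsl1 went from -0.58 to -0.07 and Fabp4 from 0.14 to 0.42.

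Among the adipocyte nuclei themselves, only 16 of which were in the PD-1 inhibitor library, Pdk4 had 777 UMIs (2164 CPM) and 61 (1088 CPM), with -0.98 (-1.39 to -0.61). Angptl4 had 236 and 22 UMIs, with -0.71 (-1.45 to -0.11), and Lipe had 588 and 65, with -0.49 (-0.89 to -0.13). Acsl1 had 1119 UMIs (3117 CPM) and 289 (5156 CPM), with 0.73 (0.53 to 0.91), and Ppargc1b had 255 and 71, with 0.84 (0.43 to 1.22). Pparg and Ppara were within or near counting error of equal, at 0.21 (-0.03 to 0.44) and 0.35 (0.02 to 0.66). Pnpla2, the lipase that acts before Lipe, had an interval of -0.35 to 0.91. By role, 1 of 8 uptake genes was higher past the fold and 1 lower, 4 of 9 oxidation genes were higher (Hadha, Hadhb, Acaa2 and Ucp3) and 1 lower, and 1 of 5 regulators was higher and 0 lower, beside a background of 12.1% higher and 23.7% lower among 768 genes.

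In fibroblasts, 31 genes had enough UMIs, with 1 higher (background 3.83%) and 1 lower (2.63%). Fabp5 had 63 UMIs (21.2 CPM) and 88 (35.4 CPM), with 0.74 (0.26 to 1.23), and Acsl1 had 137 (46.0 CPM) and 68 (27.4 CPM), with -0.74 (-1.19 to -0.32). Lpl, which fibroblasts held at 1076 and 1170 CPM, had 0.12 (0.05 to 0.19). Adipocyte markers had 37.0 CPM in control and 10.1 CPM in PD-1 inhibitor fibroblasts, with 3 of 12 at 0 in each, and their part in the Acsl1 value was not tested.

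MPs had 19 genes with enough UMIs, of which none was higher (background 4.70%) and 2 were lower (4.91%). Cpt1a, the shuttle's rate-setting enzyme outside muscle, had 78 UMIs (59.1 CPM) and 37 (37.0 CPM), with -0.67 (-1.28 to -0.09), and Ppard had 89 (67.4 CPM) and 36 (36.0 CPM), with -0.89 (-1.51 to -0.33). MPs include the cluster led by Cd209a and Flt3, and its part in these values was not tested. In mural cells, 3 of 12 genes were higher (background 5.03%) and none lower (5.26%). Fabp3 had 157 and 188 UMIs, with 0.82 (0.50 to 1.13), Fabp4 had 165 and 202, with 0.85 (0.54 to 1.15), and Acadl had 79 and 90, with 0.74 (0.29 to 1.20). The 6 CM cytoplasm transcripts had 1636 and 2452 CPM in mural cells, a log2 ratio of 0.58, and their part was not tested. In mesothelial cells, none of 15 genes was higher (background 3.15%) and 1 was lower (3.11%), which was Cd36, with 97 UMIs (124 CPM) and 77 (74.5 CPM) and a log2 ratio of -0.73 (-1.18 to -0.29). Markers of other types had lower levels in the PD-1 inhibitor library in these nuclei as well. The 12 EC markers had 1091 and 983 CPM, a log2 ratio of -0.15, with -0.62 (-1.32 to 0.06) for Pecam1, the 12 CM markers had 2636 and 2182 CPM, and the 12 adipocyte markers 39.6 and 5.81 CPM, with 4 and 7 at 0. Their part in the Cd36 value was not tested.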

How the data were processed

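Nuclei of mouse heart were profiled by single-nucleus RNA-seq (GEXSCOPE kit) in 1 control and 1 PD-1 inhibitor library. The authors deposited raw UMI counts for each gene in each nucleus. The submitters' processing notes name the builds GRCm38 and mm10, and the aligner and counter are not given in the sources used here. No barcode had fewer than 500 UMIs.

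Nuclei needed 200 genes or more and no more than 20% mitochondrial UMIs, and Scrublet doublets (6.25% and 4.19%) were removed. Counts were scaled to 10000 per nucleus and logged. The 40 genes and the wider lists were left out of the 2000 variable genes, and Leiden clusters (resolution 1, 15 neighbours, 30 principal components) were drawn from the rest (scanpy 1.11.5, leidenalg 0.10.2). A marker counted as detected with a UMI in at least 5% of a cluster's nuclei and 2 times the CPM of other nuclei, and a name needed at least 3 such markers. Clusters that detected markers of several types or were mostly proliferating stayed unnamed.

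UMIs were summed per cell type and library. Log2 ratios divide the CPM of the PD-1 inhibitor library by that of the control, after adding 0.5 UMI, with exact binomial intervals conditional on the summed count. CPM have exact Poisson and shares exact Clopper-Pearson intervals (scipy 1.17.1). The ratio step was tested on simulated data. Gene spans matched 32522 of 32589 IDs in the annotation on GRCm38. Of the 40 genes, 5 match another gene entry at 95% identity or more over at least 300 aligned bases (Cpt1b, Eci2, Etfb, Fabp3 and Slc25a20), so their counts are uncertain. For Cpt1b and Etfb the match is the entry that overlaps them in place. For Slc25a20 the matches cover only 366 of 2751 bases. Lipe is overlapped by an antisense gene over 100% of its span and Acadvl by Dvl2 over 40.5%, and whether counting used strand is not given in the sources used here.

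With 1 library a group there is no test. Other filters, cluster resolutions, scalings, UMI minimums and cluster mixes were tried as alternatives. The members, gene lists and named genes were chosen with earlier results of these data known. Named are the genes past 1.5-fold, the 6 regulators and the defining steps of each role.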

Additional observations from a re-analysis of the deposited data

Results flagged for a closer look

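A pair of genes had ratios past 1.5-fold in opposite directions in different cell types. Acsl1 had a log2 ratio of 0.59 in capillary ECs, from 51 and 53 UMIs, and of -0.74 in fibroblasts, from 137 and 68 UMIs. Ppard had 0.80 in endocardial ECs, from 34 and 69 UMIs, and -0.89 in MPs, from 89 and 36 UMIs. Neither difference between cell types was tested, because each group is 1 library. Of all genes with enough UMIs, 6.15% were higher past the fold in capillary ECs and 2.63% lower in fibroblasts. The shares were 4.67% higher in endocardial ECs and 4.91% lower in MPs. How many of all genes had such opposite ratios is not given here, so the pair is not shown to be unusual.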

How the results depend on the processing

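The medians of uptake and oxidation genes kept their sign under each alternative, with ranges of 0.33 to 0.66 for uptake and 0.16 to 0.40 for oxidation in capillary ECs, 0.00 to 0.35 for uptake in endocardial ECs, and 0.20 to 0.43 for uptake and 0.26 to 0.48 for oxidation in CMs. Counts of genes past 1.5-fold moved more. In capillary ECs, the 4 higher genes became 2 at Leiden resolution 0.5, 7 with the members among the variable genes and 1 against genes of the same length class, and the 0 lower genes became 4 with a minimum of 20 UMIs. In CMs, the 5 higher genes became 11 with at most 5% mitochondrial UMIs, 11 without the cluster rich in cytoplasmic RNA, 3 after thinning to 500 UMIs, 3 with a minimum of 200 UMIs and 2 with equal proportions of the CM clusters. The share of all genes past the fold under each alternative is not given here. These counts therefore do not show whether the members stood out from other genes. Except where that minimum itself was changed, genes were counted among those with at least 100 UMIs in all nuclei of the type, also where an alternative left fewer. The cause was not tested. Of 476 alternative values for 38 results on single genes, 407 moved by less than their counting interval, 69 moved by more and 0 changed sign past the fold. Pdk4 in CMs ran from -2.33 to -1.02, Ppara from -0.95 to -0.71 and Fabp4 in capillary ECs from 0.43 to 0.74. Pparg in all ECs ran from -1.04 with at least 500 genes per nucleus to -0.28. Equal proportions of the CM clusters, the CM clusters apart and all nuclei without adipocytes were chosen after seeing the data. No paired analysis was possible because each group has 1 library. Depth limits genes under 100 UMIs, and no value shows how hearts of a group vary.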

Other observations

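Of the 16 genes of lipid synthesis and storage, 12 had enough UMIs in adipocytes, with 6 log2 ratios above 0 and 6 below, a median of -0.22, 1 higher past the fold and 5 lower. Among all 768 genes with enough UMIs there, 12.1% were higher and 23.7% lower, and the PD-1 inhibitor library had only 16 adipocyte nuclei. Plin2, a lipid droplet coat protein, had 317 UMIs (883 CPM) in the control and 11 (196 CPM) in the PD-1 inhibitor library (log2 ratio -2.11, -3.19 to -1.31). Fasn, fatty acid synthase, had 708 UMIs and 41, with -1.41 (-1.92 to -0.98), and Elovl6, which lengthens its products, had 228 and 10, with -1.76 (-2.91 to -0.93). Acaca, which makes malonyl-CoA, had 1644 and 126, with -1.02 (-1.30 to -0.76), and Scd1, a desaturase, had 1026 and 98, with -0.70 (-1.02 to -0.41). G0s2, an inhibitor of the lipase Pnpla2, was the higher gene, with 126 and 48 and 1.30 (0.78 to 1.78). Dgat2, which completes triglyceride, had 383 and 60, with 0.01 (-0.41 to 0.40). The genes named here were chosen after their values were seen.

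In endocardial ECs, Acadsb, the dehydrogenase of branched short chains, had 139 UMIs (92.5 CPM) and 277 (159 CPM), with 0.78 (0.49 to 1.09), and G0s2 had 112 UMIs (74.5 CPM) and 202 (116 CPM), with 0.64 (0.30 to 0.99). Pnpla2 itself had 65 and 112, with 0.57 (0.12 to 1.04). These genes too were chosen after their values were seen.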
